A study of Homo sapiens with 94 samples.

Results

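The genes described here were 48 genes of DNA replication and of entry into S phase, measured in tumors grown from NCI-H226 cells after a single dose of the TEAD inhibitor K-975. They were chosen by gene symbol, with earlier results of these data known, and all 48 were among the 20239 gene IDs of the expression table. All 48 also passed the filter on low values, which kept 13036 genes for testing. NCI-H226 is an established human line of malignant pleural mesothelioma that has lost NF2, and NF2 was at 0 in 83 of the 94 libraries, with a highest value of 0.244. The tumors were subcutaneous xenografts in female CB17 SCID mice, so every group shared the NF2 loss, the line and the SCID host.

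The series comprised 94 tumors in 3 studies, which followed the dose by 1 h, by 3-6 h and by 24 h. K-975 occupies the palmitate pocket of TEAD transcription factors through a covalent bond and was given once by mouth at 30, 100 or 200 mg/kg. Control mice received the ethanol, Solutol and glucose vehicle or nothing at all. The volume was 20 mL/kg for vehicle and for the highest dose and 10 mL/kg for the lower doses. Each group had 5 tumors, except 4 for vehicle at 24 h, and at 3-6 h vehicle and each dose had 2 cage groups of 5. The paper lists sampling at 3 h and at 6 h. The labels give 3-6 h for the untreated group of that study, and both cage groups were assigned this time. Whether the 2 differ in hour is therefore not known, and they were averaged.

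Values are read as FPKM (fragments scaled to transcript length and to the mapped total of the library), although the table names no unit. No read counts were given, so the depth behind a value is unknown. A library held between 11344 and 11665 genes at an FPKM of at least 1, apart from 3 libraries with 702, 7196 and 8531 such genes. Those 3 (30 mg/kg replicate 1 and 100 mg/kg replicate 5 at 24 h, and 200 mg/kg replicate 1 at 1 h) were left out, which kept 91 tumors. Of 10 mesothelial markers, which the label of the cells calls for, 8 averaged at least 1 FPKM in vehicle tumors at 24 h. CALB2 averaged 508 FPKM there, MSLN 243 FPKM and WT1 30.2 FPKM, while UPK3B (0.958 FPKM) and DES (0.169 FPKM) were low. The host cell markers PECAM1 (endothelium) and CD163 (macrophages) had a median of 0 over the 91 tumors, but KDR (45.6 FPKM), CD68 (178 FPKM) and PDGFRB (32.2 FPKM) of the host cell lists were not low in the same vehicle tumors.

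Replication origins are licensed in G1, when ORC, CDC6 and CDT1 load the MCM2-7 helicase onto DNA. At the start of S phase CDC45 and the GINS complex join it to form the active helicase, after which PCNA, its loader RFC and the DNA polymerases copy the template. Most genes of this machinery are transcribed in late G1 by E2F factors, which RB proteins hold back until kinases bound to their cyclins, cyclin E among these, release them. TEAD factors with their co-activator YAP1 are known to drive growth in many NF2-deficient cells.

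The promoters of these genes are shown first, since they carry the sequence by which the group is known. RefSeq promoters, from 250 bases before to 50 after the start (GRCh38.p14), matched 43 of the 48 genes, without entries for CCNE2, E2F8, GINS4, MCM4 and MCM5. Known E2F motifs were looked for on both strands as the letters TTTGGCG (in 15 promoters of the 43), then the letters TTTCGCG (in 9 promoters) and also the letters TTTCCCG (in 12 promoters), and 1 or more of them was in 27 of the 43 (62.8%) and in 7.28% of all 27305 promoters. The CCAAT box bound by NF-Y was in 24 of 43 (55.8%) and in 35.7% of all promoters. The CHR element of late cell cycle genes (TTTGAA) was in only 1 of 43 (2.33%) against 15.4% of all promoters and 15 of 20 G2/M genes (75.0%). The TEAD letters GGAATG were in 5 of 43 (11.6%) and in 14.0% of all promoters. Of the 14 genes with an entry that fell at 24 h after 200 mg/kg, 12 had E2F letters, beside 15 of the other 29, a difference that was not tested. A match is a description of letters and not of bound protein.

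The 150 bases just before the start are given for 6 genes that were lower at 24 h after 200 mg/kg, those with the smallest p among genes with E2F letters there. Capitals mark the E2F letters and the CCAAT box, each also as its reverse complement (ATTGG for the CCAAT box). They lie at chr19:4909351-4909500 (UHRF1, plus strand), chr18:657503-657652 (TYMS, plus), chr7:100101398-100101547 (MCM7, minus), chr22:19479770-19479919 (CDC45, plus), chr17:40287729-40287878 (CDC6, plus) and chr16:88803639-88803788 (CDT1, plus).
UHRF1: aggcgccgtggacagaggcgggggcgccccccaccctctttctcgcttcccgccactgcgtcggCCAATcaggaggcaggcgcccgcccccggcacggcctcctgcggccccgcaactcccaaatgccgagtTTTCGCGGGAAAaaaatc
TYMS: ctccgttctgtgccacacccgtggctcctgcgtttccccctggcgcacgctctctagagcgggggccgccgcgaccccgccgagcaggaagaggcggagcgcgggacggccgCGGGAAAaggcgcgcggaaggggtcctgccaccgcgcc
MCM7: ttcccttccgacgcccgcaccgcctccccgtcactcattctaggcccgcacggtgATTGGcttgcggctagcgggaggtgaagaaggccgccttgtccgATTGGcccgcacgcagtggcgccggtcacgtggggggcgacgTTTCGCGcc
CDC45: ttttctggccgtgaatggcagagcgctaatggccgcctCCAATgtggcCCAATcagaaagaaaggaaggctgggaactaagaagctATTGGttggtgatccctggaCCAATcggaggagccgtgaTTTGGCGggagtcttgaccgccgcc
CDC6: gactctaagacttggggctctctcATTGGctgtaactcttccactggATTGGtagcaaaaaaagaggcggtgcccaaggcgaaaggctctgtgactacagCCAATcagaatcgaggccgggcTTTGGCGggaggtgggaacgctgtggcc
CDT1: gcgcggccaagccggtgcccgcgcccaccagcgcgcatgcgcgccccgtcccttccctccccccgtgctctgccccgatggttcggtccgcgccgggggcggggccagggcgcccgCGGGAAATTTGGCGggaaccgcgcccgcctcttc
In all 6 the marked E2F letters began within 38 bases of the start. In UHRF1 the letters TTTCGCG and, on the other strand, TTTCCCG overlapped, from 18 to 7 bases before the start. CDC45 and CDC6 had their E2F letters 25 and 28 bases before the start, with CCAAT boxes further upstream at 44 and 50 bases. CDT1 had no CCAAT box in the 250 bases before its start.

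In untreated tumors the 48 genes spanned a wide range of levels. Over the 15 untreated tumors of the 3 studies the highest was TYMS, the thymidylate synthase, at 79.3 ± 16.6 FPKM (SD, n = 15). It was followed by MCM4 at 53.2 ± 10.6 and by RRM1, the large subunit of ribonucleotide reductase, at 46.5 ± 7.29 FPKM. The spreads of MCM4, RRM1 and MCM5 (46.4 ± 9.18 FPKM) overlapped. The median of the 48 genes was 13.0 FPKM, beside 11.2 FPKM over all genes tested. At the other end CCNE1, a cyclin E, stood at 1.29 ± 0.505 FPKM and E2F2 at 0.518 ± 0.617 FPKM, and the level of E2F2 is too low to follow. These levels also depend on how well each transcript was captured by the enrichment probes.

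The question of the dose comparisons was how expression in the tumor responds to K-975. At 24 h after 200 mg/kg the replication genes were lower than in vehicle tumors: 17 of the 48 fell, none rose, and the median log2 fold change was -0.54. Of all 13036 genes, 7.41% passed the threshold in either direction and 3.61% were called lower, with a median log2 fold change of 0.04. By sign alone 47 of the 48 genes lay below 0, where 44.6% of all genes did. In these bulk samples fewer dividing cells and less RNA per cell cannot be told apart. Each group at 24 h was a single cage group, so the dose and the cage group cannot be told apart either. The threshold was an adjusted p of 0.05 from limma with Benjamini-Hochberg adjustment over all genes.

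The count of 17 rested on few tumors. Leaving out any 1 of the 9 tumors gave between 4 genes (without 200 mg/kg replicate 1) and 27 (without 200 mg/kg replicate 2), all of them lower. It gave 9, 6 and 7 without vehicle replicates 1, 2 and 3, and 9 and 8 without replicates 3 and 5 of 200 mg/kg. With all 94 libraries, whose spread includes the 3 shallow ones, the same fold changes gave 0 genes, and a fit of the compared groups alone gave 5.

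**Figure D1:**
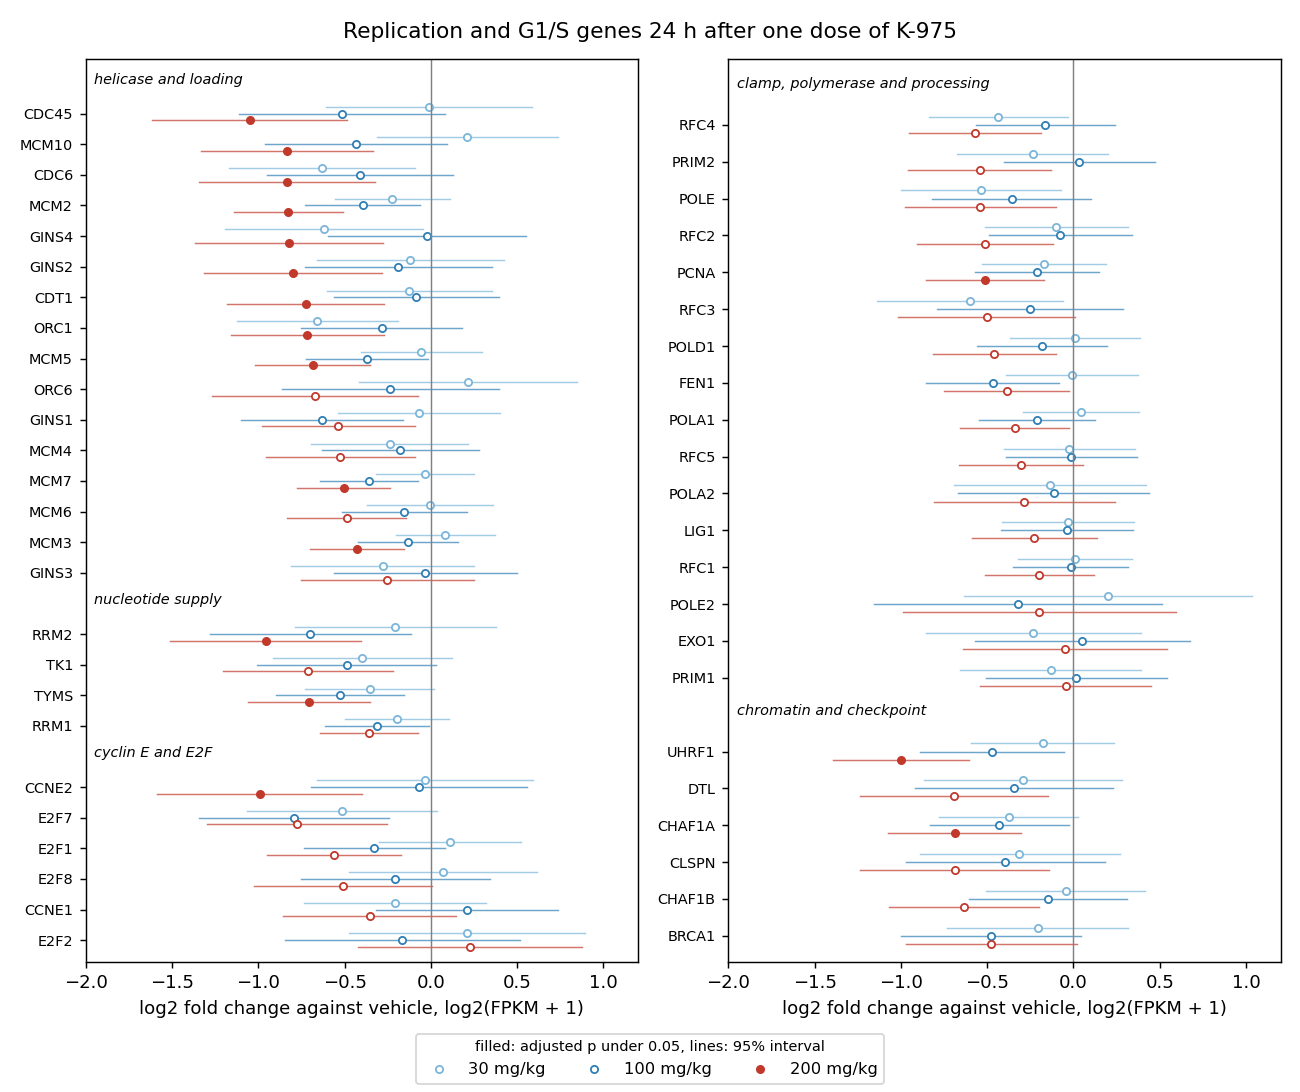
Log2 fold change against vehicle at 24 h, on the log2(FPKM + 1) scale, for each of the 48 genes at 30, 100 and 200 mg/kg (n = 4, 4 and 5 tumors against 4 vehicle tumors). Lines are 95% confidence intervals and filled points passed the threshold in limma. All 17 filled points are at 200 mg/kg and lie left of 0.

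Among the 16 genes of the helicase and its loading, 11 fell and the median log2 fold change was -0.70. MCM2, a subunit of the helicase (ENSG00000073111.13, chromosome 3, 127598222 to 127622436 in GRCh38), had FPKM of 16.3, 15.8, 15.3 and 13.2 in the 4 vehicle tumors. After 200 mg/kg it had 6.58, 11.3, 7.77, 6.24 and 9.45 FPKM. Every treated tumor lay below every vehicle tumor and also below all 5 untreated tumors, the lowest of which had 11.7 FPKM. The log2 fold change was -0.83 (SE 0.16, adjusted p = 0.000375, limma), and it stayed past the threshold whichever tumor was left out, with the largest adjusted p at 0.0036.

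The other helicase subunits moved less. MCM5 had 53.6, 48.4, 57.9 and 36.3 FPKM with vehicle and 20.7, 41.2, 31.0, 29.8 and 29.3 FPKM after 200 mg/kg, for a log2 fold change of -0.68 (SE 0.17, adjusted p = 0.00592, limma). Replicate 2 of the treated tumors lay above the lowest vehicle tumor, and without replicate 1 the adjusted p was 0.0532. MCM7 had 34.2, 33.4, 34.7 and 32.3 FPKM with vehicle and 19.6, 27.2, 25.4, 21.5 and 23.9 FPKM after the dose. Its groups did not overlap, and the log2 fold change was -0.51 (SE 0.14, adjusted p = 0.0128, limma). MCM3 also fell, by 0.43 on the log2 scale, while MCM6 (log2 fold change -0.49, adjusted p = 0.0683) and MCM4 (-0.53, adjusted p = 0.126) did not pass.

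CDC45, which joins MCM2-7 in the active helicase, had the largest fall of the 48 genes on the log2 scale. It had 7.05, 5.76, 10.8 and 5.07 FPKM with vehicle and 2.30, 4.14, 2.36, 3.24 and 2.34 FPKM after 200 mg/kg. The treated mean was 40.1% of the vehicle mean and the groups did not overlap, with a log2 fold change of -1.05 (SE 0.28, adjusted p = 0.0138, limma). In the untreated tumors of the same study the range was 3.36 to 8.87 FPKM, which overlapped with the treated tumors. Of the GINS complex, GINS2 fell by 0.80 and GINS4 by 0.82 on the log2 scale, the latter with vehicle tumors in 2 pairs, at 18.0 and 18.8 and at 6.63 and 6.70 FPKM. GINS1 had a log2 fold change of -0.54 (adjusted p = 0.129) and GINS3 of -0.25 (adjusted p = 0.604).

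Of the loading factors, CDC6, CDT1 and ORC1 fell and ORC6 did not pass. CDC6 had 20.4, 26.9, 26.9 and 22.8 FPKM with vehicle and 11.8, 16.3, 19.7, 12 and 8.41 FPKM after 200 mg/kg. No treated tumor reached the vehicle range (log2 fold change -0.83, SE 0.26, adjusted p = 0.0328, limma), while 1 untreated tumor had 15.9 FPKM. ORC1, the largest subunit of the origin recognition complex, had 5.05, 4.38, 4.66 and 2.57 FPKM with vehicle and 1.71, 2.25, 1.97, 2.66 and 1.92 FPKM after the dose. Its fall of 0.72 on the log2 scale (adjusted p = 0.0341) left 1 treated tumor above the lowest vehicle tumor. CDT1 fell by 0.72 (adjusted p = 0.037). MCM10, which helps to activate the helicase, had 4.16, 6.74, 5.12 and 3.81 FPKM with vehicle and 1.64, 2.56, 2.05, 3.96 and 1.69 FPKM after the dose, a log2 fold change of -0.83 (SE 0.25, adjusted p = 0.0287, limma). ORC6 had a log2 fold change of -0.67 (adjusted p = 0.167).

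The 16 genes of the clamp, the polymerases and the processing of Okazaki fragments showed smaller differences. Only PCNA, the sliding clamp, passed the threshold, and the median log2 fold change of the 16 was -0.36. PCNA had 19.8, 24.6, 25.4 and 17.9 FPKM with vehicle and 10.9, 17.9, 13.8, 17.2 and 15.9 FPKM after 200 mg/kg. The groups touched at 17.9 FPKM, and the log2 fold change of -0.51 (SE 0.17) had an adjusted p of 0.0497 in limma. RFC4, a subunit of the clamp loader, had 27.3, 29.2, 31.1 and 29.3 FPKM with vehicle and 17.6, 28.3, 12.6, 26.2 and 16.1 FPKM after the dose. Treated tumors were split, with replicates 2 and 4 near the vehicle values, and the log2 fold change of -0.57 (adjusted p = 0.0517) did not pass. The polymerase genes POLE (-0.54, adjusted p = 0.121), POLD1 (-0.46, adjusted p = 0.101) and POLA1 (-0.34, adjusted p = 0.189) had negative log2 fold changes that also missed the threshold. PRIM1, the catalytic primase subunit, had a log2 fold change of -0.05 (95% interval -0.54 to 0.45), and EXO1, an exonuclease of repair, one of -0.05 (-0.64 to 0.55).

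Of the 4 genes of nucleotide supply, TYMS and RRM2 fell. TYMS had 105, 85.4, 102 and 59.8 FPKM with vehicle and 38.7, 79.4, 47.4, 54.3 and 49.6 FPKM after 200 mg/kg. All treated tumors but replicate 2 lay below the vehicle range (log2 fold change -0.71, SE 0.18, adjusted p = 0.00764, limma). RRM2, the S phase subunit of ribonucleotide reductase, had 40.3, 41.2, 24.8 and 20.6 FPKM with vehicle and 9.96, 24.5, 15.3, 17.7 and 12 FPKM after the dose, again with replicate 2 inside the vehicle range (log2 fold change -0.96, SE 0.28, adjusted p = 0.0231, limma). TK1, the thymidine kinase, had a log2 fold change of -0.71 with an adjusted p of 0.0604, and RRM1 of -0.36 with 0.109.

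Of the 6 genes of cyclin E and E2F factors among the 48, only CCNE2 passed. CCNE2 fell, from 6.01, 6.49, 10.0 and 5.63 FPKM with vehicle to 2.45, 4.08, 3.65, 2.01 and 2.97 FPKM after 200 mg/kg, with no overlap. Its treated tumors were also below the 5 untreated ones, which began at 5.58 FPKM (1 of them stood apart at 8.97 FPKM), and the log2 fold change was -0.99 (SE 0.30, adjusted p = 0.0288, limma). CCNE1 had a log2 fold change of -0.36 (adjusted p = 0.432). E2F7, a repressor of the family, had 4.74, 7.66, 11.4 and 7.65 FPKM with vehicle and 2.23, 4.73, 5.34, 3.64 and 4.72 FPKM after the dose. Only replicate 3 of the treated tumors exceeded the lowest vehicle tumor, and the log2 fold change of -0.77 just missed the threshold (adjusted p = 0.0532, limma). E2F1 had a log2 fold change of -0.56 (adjusted p = 0.0623) with each of the 5 treated tumors below the vehicle range, and E2F2, at its low level, one of 0.23 (adjusted p = 0.739).

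In the group of chromatin and checkpoint genes, UHRF1 and CHAF1A fell. UHRF1, which guides maintenance methylation to newly copied DNA (ENSG00000276043.4, chromosome 19, 4903079 to 4962154 in GRCh38), had 33.3, 30.7, 34.3 and 21.3 FPKM with vehicle. After 200 mg/kg it had 10.4, 19.9, 13.0, 15.9 and 13.3 FPKM. Every treated tumor lay below all vehicle and all untreated tumors, the lowest untreated value being 24.0 FPKM. The log2 fold change was -1.001 (SE 0.20, adjusted p = 0.000577, limma), and the largest adjusted p with 1 tumor left out was 0.00638. CHAF1A, the large subunit of the histone chaperone CAF-1, had 21.6, 21.1, 19.6 and 14.6 FPKM with vehicle and 13.5, 14.3, 8.62, 11.4 and 10.2 FPKM after the dose. These did not overlap, with a log2 fold change of -0.69 (SE 0.19, adjusted p = 0.0174, limma). CHAF1B (-0.64, adjusted p = 0.0584), DTL (-0.69, adjusted p = 0.106), CLSPN (-0.69, adjusted p = 0.112) and BRCA1 (-0.48, adjusted p = 0.252) had negative log2 fold changes short of the threshold.

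Counted by tumors rather than by a test, 11 of the 48 genes had every tumor of 200 mg/kg below every vehicle tumor at 24 h, as did 3.22% of all genes tested. MCM2, CCNE2 and UHRF1 were in addition below every untreated tumor of that study, which held for 0.898% of all genes. One treated tumor stood apart. Replicate 2 of 200 mg/kg gave the highest of the 5 values for 34 of the 48 genes and for 11 of the 15 described above by tumor. Replicate 4 of vehicle gave the lowest of its 4 values for 35 genes. Their relative depths (1.027 and 1.015, as a multiple of the median library) lay within the range of the other 24 h libraries.

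**Figure D2:**
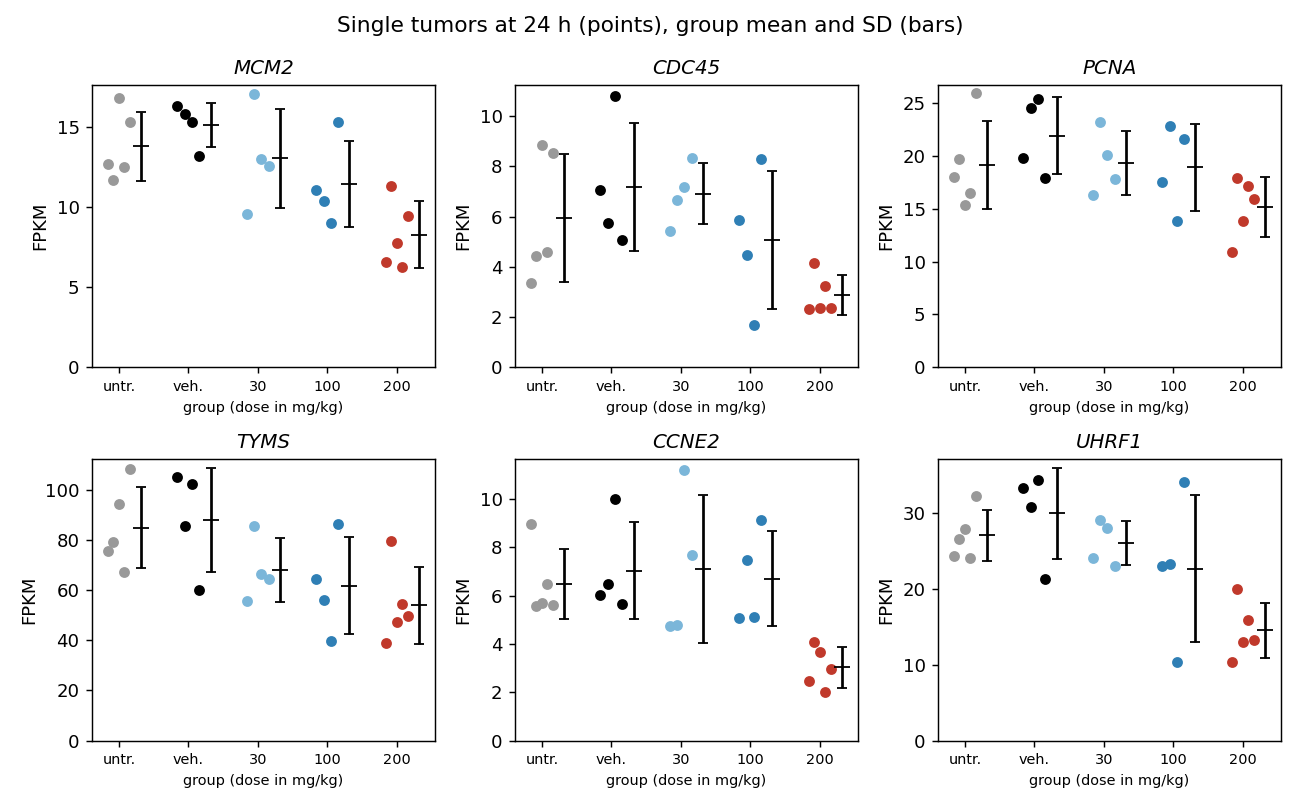
FPKM in each tumor of the 24 h study (points) for 6 genes, by group, with the group mean and SD beside them (bars). All 5 tumors of 200 mg/kg lie below all vehicle and untreated tumors for MCM2, CCNE2 and UHRF1, and groups touch or overlap with vehicle for PCNA and TYMS.

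Lower doses gave smaller median differences at 24 h, though not for every gene. ORC1 averaged 53.2% of the vehicle mean at 30 mg/kg, with all 4 tumors below the vehicle range, and 50.4% at 200 mg/kg. RFC3 averaged 57.8% at 30 mg/kg and 66.6% at 200 mg/kg. Most genes had their lowest mean at 200 mg/kg, as counted below. At 100 mg/kg the median log2 fold change of the 48 genes was -0.22, and 11 had an unadjusted p under 0.05, as did 14.1% of all genes. None passed the adjusted threshold in limma, where 1.12% of all genes did. At 30 mg/kg the median was -0.13 and 6 had an unadjusted p under 0.05 (10% of all genes did), and again none passed the adjusted threshold (0.0384% of all genes did). With all 94 libraries, among them the one with 702 genes, 16 genes passed as lower at 30 mg/kg. The 100 mg/kg count became 2 without replicate 4 of that dose, and 0 without any other tumor. The doses shared their vehicle tumors, so these comparisons are not independent, and no test was made between doses.

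The order of the means followed the dose for part of the genes. For 17 of the 48, among them MCM2, MCM5, MCM7, CDC45, PCNA, TYMS, RRM2 and UHRF1, the mean fell at each step from vehicle over 30 and 100 to 200 mg/kg, as it did for 7.07% of all genes. The mean was lowest at 200 mg/kg for 37 of the 48 genes and for 24.9% of all genes. MCM2 averaged 15.2 ± 1.38 FPKM with vehicle (SD, n = 4), 13.0 ± 3.08 at 30 mg/kg (n = 4), 11.5 ± 2.72 at 100 mg/kg (n = 4) and 8.27 ± 2.11 at 200 mg/kg (n = 5). UHRF1 averaged 29.9 ± 5.92, 26 ± 2.95, 22.6 ± 9.69 and 14.5 ± 3.59 FPKM in the same order. For both genes the ranges of neighbouring doses overlapped at every step. CCNE2 showed no such steps, with 7.04 ± 2.02, 7.09 ± 3.04 and 6.70 ± 1.97 FPKM up to 100 mg/kg and 3.03 ± 0.848 FPKM at 200 mg/kg.

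Fitted as a line over dose, 16 of the 48 genes fell at 24 h and none rose, where 5.61% of all genes passed in either direction and 3% as lower. The largest slopes per 100 mg/kg were those of CDC45 (-0.56, SE 0.13, adjusted p = 0.00385, limma), MCM10 (-0.49, SE 0.11, adjusted p = 0.00375) and UHRF1 (-0.49, SE 0.09, adjusted p = 0.000209). E2F1, MCM6 and CHAF1B passed here and not in the comparison of 200 mg/kg, whereas CDC6, GINS4, ORC1 and PCNA passed there and not here. Both comparisons used the same vehicle and 200 mg/kg tumors, so their counts are not independent. A slope can also pass without a graded response. CCNE2 passed (-0.49, SE 0.14, adjusted p = 0.0184, limma) although its means were level up to 100 mg/kg. The count was 8 without replicate 1 of 200 mg/kg, 27 without its replicate 2, 10 without its replicate 3 or 4 or vehicle replicate 3, 8 in a fit of the 24 h groups compared and 0 with all 94 libraries.

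Vehicle itself made no difference that passed. Against untreated tumors, none of the 48 genes passed in limma at 1 h, 3-6 h or 24 h, nor did any of all genes (0%), and 2, 2 and 1 of the 48 had an unadjusted p under 0.05, beside 4.73%, 4.83% and 4.2% of all genes. At 24 h the 48 genes nevertheless had a median log2 difference of 0.12, higher with vehicle, and the highest was that of POLE (0.46, adjusted p = 1). Set against untreated instead of vehicle tumors, 200 mg/kg at 24 h gave 11 genes, all lower, and a median log2 fold change of -0.42. Of all genes, 8.31% passed in that comparison in either direction and 3.79% as lower. MCM2, MCM5, MCM10, CDC6, TYMS, CCNE2 and UHRF1 were among the 11, whereas CDC45, MCM7, ORC1, PCNA, RRM2 and CHAF1A no longer passed.

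At 1 h and at 3-6 h no member of the machinery passed at any dose. At 1 h the shares of all genes that passed were 0%, 0.00767% and 0% at 30, 100 and 200 mg/kg, and the medians of the 48 log2 fold changes were 0.16, 0.19 and 0.03. At an unadjusted p under 0.05 there were 4, 4 and 0 of the 48, beside 4.38%, 4.97% and 3.34% of all genes. RRM1 at 100 mg/kg came closest, with a log2 fold change of 0.49 (SE 0.14, adjusted p = 0.921, limma). At 3-6 h the shares were 0.0153%, 0.43% and 0.069%, the medians 0.02, -0.08 and 0.04, and the genes at an unadjusted p under 0.05 numbered 2, 4 and 2 of the 48, beside 7.03%, 10.3% and 7.23% of all genes. MCM2 at 3-6 h had a lowest, median and highest value of 9.36, 12.1 and 15.0 FPKM in the 10 vehicle tumors and of 10.0, 11.9 and 15.2 FPKM after 200 mg/kg. UHRF1 had 17.8, 24.1 and 31.9 FPKM with vehicle and 20.0, 24.5 and 31.5 FPKM after the dose. The groups lay over each other for both genes. Their log2 fold changes were -0.01 (95% interval -0.22 to 0.20) and 0.02 (-0.24 to 0.28). No slope on dose passed in limma at 1 h (0% of all genes) or at 3-6 h (0.215% of all genes), with 0 and 1 of the 48 at an unadjusted p under 0.05, beside 3.41% and 7.83% of all genes.

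The cage groups of 3-6 h gave the same count. Against the 10 vehicle tumors, none of the 48 genes passed in cage groups 4 and 5 (200 mg/kg), 6 and 7 (100 mg/kg) or 8 and 9 (30 mg/kg), where 0.00767%, 0.276%, 0%, 1.33%, 0% and 0.0307% of all genes did. At an unadjusted p under 0.05 there were 0, 2, 1, 5, 1 and 1 of the 48, beside 4.83%, 9.63%, 5.01%, 13.5%, 4.93% and 9.26% of all genes. Without vehicle replicate 1 of cage group 2, 1 gene passed for cage group 7. Between the 2 cage groups of a dose none passed either, with 0.0153%, 0.046% and 0% of all genes at 200, 100 and 30 mg/kg, nor between the 2 vehicle cage groups (0.33%), with 0, 3, 1 and 4 of the 48 at an unadjusted p under 0.05, beside 7.09%, 7.5%, 6.36% and 9.96% of all genes.

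The effect of 200 mg/kg was then compared between studies. At 24 h it was lower than at 3-6 h for 5 of the 48 genes and higher for none, where 1.72% of all genes passed in either direction and 0.99% as lower. The 5 were UHRF1 (difference of log2 fold changes -1.02, SE 0.24, adjusted p = 0.0137, limma), MCM2 (-0.81, SE 0.19, adjusted p = 0.0139), GINS4 (-1.32, SE 0.33, adjusted p = 0.0208), MCM5 (-0.71, SE 0.20, adjusted p = 0.0444) and TYMS (-0.75, SE 0.21, adjusted p = 0.0463). GINS4 had a log2 fold change of 0.50 at 3-6 h (adjusted p = 0.425) beside its fall at 24 h. The count ranged from 0 without replicate 1 of 200 mg/kg at 24 h to 14 without its replicate 2, and it was 0 with all 94 libraries. Between 24 h and 1 h none passed (0.583% of all genes), with 24 at an unadjusted p under 0.05 beside 13.2% of all genes, and the smallest adjusted p at 0.0553 for UHRF1. Between 3-6 h and 1 h none passed (0%), and none of the 48 had an unadjusted p under 0.05, beside 4.63% of all genes.

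**Figure D3:**
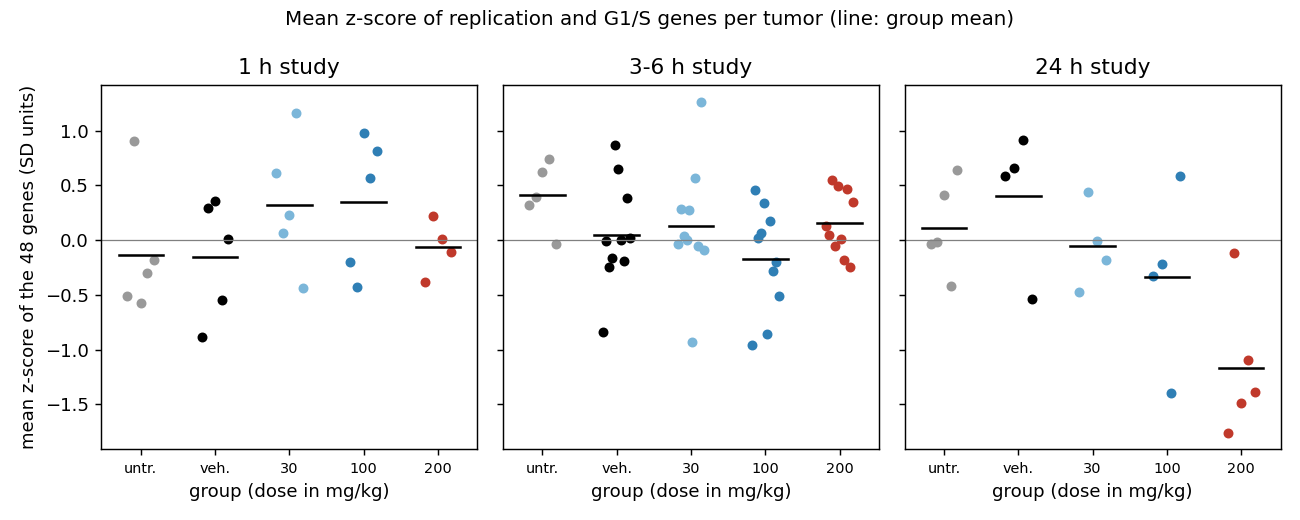
Mean z-score of the 48 genes in each of the 91 tumors, by study and group, with a line at the group mean. A z-score is the log2(FPKM + 1) of a gene minus its mean over the 91 tumors, in units of its SD. At 24 h 4 of the 5 tumors of 200 mg/kg lie at or below -1.10 and the fifth at -0.12.

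Averaged per tumor as z-scores, the 48 genes gave one value for each library. At 24 h the 4 vehicle tumors had 0.581, 0.659, 0.909 and -0.535, and the 5 tumors of 200 mg/kg had -1.761, -0.116, -1.489, -1.100 and -1.391. Replicate 2 thus lay above the lowest vehicle tumor, and the other treated tumors below all of them. The tumors of 100 mg/kg spread from -1.394 to 0.583 and those of 30 mg/kg from -0.471 to 0.435. The group means were 0.40 ± 0.64 for vehicle (SD, n = 4), 0.11 ± 0.42 for untreated (n = 5) and -1.17 ± 0.64 for 200 mg/kg (n = 5). In the other 2 studies the group means lay between -0.18 and 0.41 with the cage groups of a dose pooled.

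The genes also varied together between tumors of one group. With group means removed, the median correlation of the 1128 pairs was 0.28 over 91 tumors, and 95.9% of pairs were above 0, beside a median of 0.004 and 51.1% for all pairs of genes tested. The median correlation of the 48 genes with the G2/M genes described below was higher, at 0.393. TYMS (median correlation of 0.476 with the other 47 genes), UHRF1 (0.475) and MCM5 (0.449) moved most with the rest, while RFC1 (0.032) and E2F2 (0.116) moved least. The points share their libraries, and the mean of the 48 genes had a correlation of -0.162 with log2 relative depth.

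Genes outside the 48 that act beside them were counted from lists. At 24 h after 200 mg/kg, 3.61% of all genes were called lower and 7.41% in either direction. Of 30 further replication genes, 4 fell and none rose in that comparison, with a median log2 fold change of -0.24. Among them were GMNN, the inhibitor of CDT1 (-0.82, adjusted p = 0.0157, limma), TICRR, which helps to load CDC45 (-0.69, adjusted p = 0.00664), and the chromatin remodeller HELLS (-0.73, adjusted p = 0.0328). Of 27 regulators of G1/S, 2 fell and 2 rose, with a median of -0.04. SKP2, a ubiquitin ligase subunit that targets the inhibitor p27, fell by 1.03 on the log2 scale (SE 0.14, adjusted p = 7.5e-07, limma) and MYBL2, an E2F target that acts in the MuvB complex, fell by 0.90 (adjusted p = 0.00304). The D cyclin CCND2 rose (1.31, SE 0.41, adjusted p = 0.037), as did the E2F partner TFDP2 (0.86, SE 0.28, adjusted p = 0.0439).

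Of 26 genes of G2 and mitosis, 4 fell and none rose, beside 3.61% of all genes called lower. At an unadjusted p under 0.05 there were 17, beside 21.9% of all genes, with a median log2 fold change of -0.43, beside -0.54 for the 48. The 4 were the kinase AURKB (-0.83, adjusted p = 0.02, limma), the transcription factor FOXM1 (-0.56, adjusted p = 0.0205), the kinesin KIF23 (-0.57, adjusted p = 0.0193) and UBE2C, an enzyme of the anaphase-promoting complex (-0.53, adjusted p = 0.0415). The mean z-scores of the 2 lists had a correlation of 0.905 over the 91 tumors after removal of group means. Before that removal, replicate 2 of 200 mg/kg at 24 h had a G2/M mean of 1.019 beside -0.116 for the 48 genes. Both values lay above the means of its group, which were -0.805 and -1.171.

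**Figure D4:**
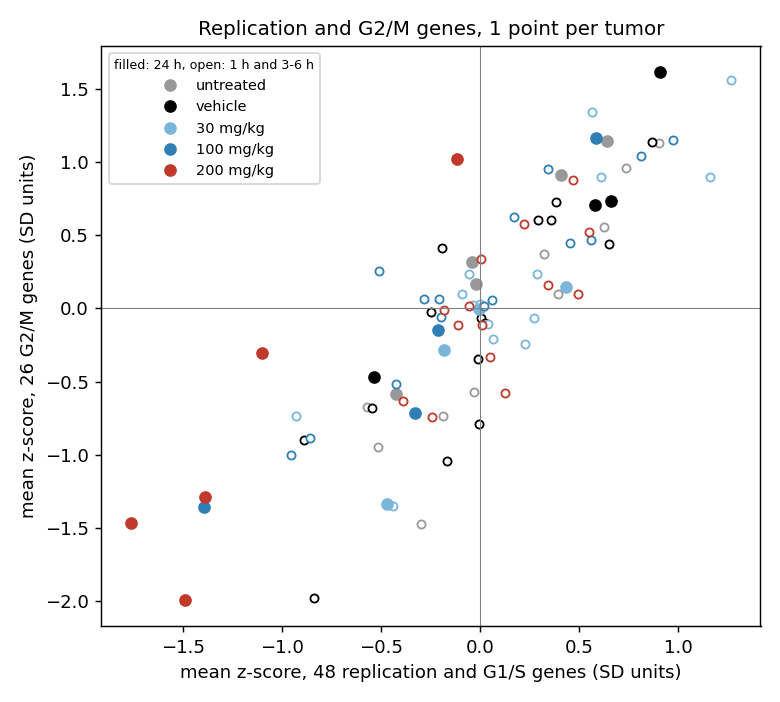
Mean z-score of the 26 G2/M genes against that of the 48 replication and G1/S genes, 1 point per tumor (91 tumors, filled at 24 h). Points follow a common diagonal, 3 tumors of 200 mg/kg lie at its low end, and replicate 2 of that group lies above it at 1.019 on the vertical axis.

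Other measures were compared between vehicle and 200 mg/kg at 24 h. The 10 mesothelial markers, 9 of them at a mean of at least 1 FPKM after 200 mg/kg, summed to between 2731 and 2785 FPKM in vehicle tumors and to between 3147 and 3898 FPKM after 200 mg/kg, with no overlap. Untreated tumors of the same study summed to 2572 to 3239 FPKM, which overlapped with 200 mg/kg. Those of 30 mg/kg summed to 2998 to 3640 FPKM, also above vehicle. Of the 9 markers tested at 200 mg/kg, MSLN, CALB2 and KRT19 rose, by 0.40, 0.40 and 0.32 on the log2 scale. Of all genes, 7.41% passed in either direction. KRT5 averaged 726 FPKM with vehicle and 1041 FPKM after 200 mg/kg. Only WT1 (30.2 and 28.1 FPKM) and VIM (772 and 764 FPKM) averaged less after it. The 5 endothelial markers summed to 31.0 to 67.9 FPKM with vehicle and 27.1 to 92.5 FPKM after the dose, nearly all of it KDR. The 6 macrophage markers summed to 148 to 227 and 130 to 210 FPKM, nearly all of it CD68, and the 4 fibroblast markers to 31.4 to 36.6 and 22.2 to 35.1 FPKM, mostly PDGFRB. For these 3 host cell lists the ranges overlapped. The 3 red cell markers stayed at or below 1.85 FPKM and the 2 neutrophil markers at or below 2.51 FPKM in both groups, with HBA1, HBB and S100A8 at a median of 0. Libraries held 11356 to 11422 genes at an FPKM of at least 1 with vehicle and 11424 to 11613 after 200 mg/kg. The part of these measures, and of reads from mouse cells, in the result was not tested.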

How the data were processed

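RNA-seq was performed on 94 xenograft tumors (KAPA RNA HyperPrep libraries with HyperCap target enrichment, paired ends on a NextSeq 500). The labels name STAR and GRCh38, whereas the quantification tool and the handling of mouse reads are not given in the sources used here. The values deposited by the authors, 1 column per library, are read as FPKM because the study's supplement uses that unit for RNA-seq of cell lines. The table itself states none. Probes capture transcripts unequally, and FPKM are relative to the library total, so a shallow library gives distorted values. Coordinates are those of the table. Of 20555 entries, 316 were dropped as repeats of a gene ID (the entry with the highest mean was kept, which applies to GINS3), and 32 blank cells were read as 0. Per-library columns not used numbered 0.

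Groups came from the labels (19 groups), and the times from the untreated group of each study. Each library is a tumor of its own mouse. Libraries under 10000 genes at an FPKM of at least 1 were left out (3 of 94). limma 3.58.1 (R 4.3.3; lmFit with 1 coefficient per group, eBayes with trend and robust) was run on log2(FPKM + 1) for the 13036 genes that reached an FPKM of 1 in 4 or more libraries. This scale understates changes of low genes. Benjamini-Hochberg adjustment ran over all genes of a comparison, with a threshold of 0.05. The script was tested on simulated data. Relative depth is the inverse of the typical value at which rarely detected genes appear, as a multiple of the median library. Figures were drawn with matplotlib 3.10.9 and the rest computed with Python 3.11.15 and pandas 2.3.3.

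All 48 genes are accounted for. Values of single tumors are given for the 12 genes with the smallest p among those past the threshold and for the 2 with the smallest p at 200 mg/kg and 24 h in each of 5 role groups, 15 genes in all, and others are named by their role. The values of 1 gene of the further lists are not reported here. The genes, the lists and the tests were chosen with earlier results of these data known. The alternatives tried were all 94 libraries, a pseudocount of 0.1, no filter, quantile normalization, scaling to the same median, only the groups compared, eBayes without trend and robust, untreated tumors as control, 1 vehicle cage group at a time and leaving out each tumor.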

Additional observations from a re-analysis of the deposited data

Results flagged for a closer look

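Of 75 sets of tumors checked (15 genes in the 5 groups at 24 h), 1 held a tumor far from the rest of its group. CCNE2 was 8.97 FPKM in untreated replicate 1 at 24 h, where the other 4 untreated tumors lay between 5.58 and 6.47 FPKM. Chance gives about 1 such tumor in 20 sets.

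The effect of 200 mg/kg differed between 24 h and 3-6 h for 5 genes in limma, each lower at 24 h. The differences of log2 fold changes were -0.81 for MCM2 (adjusted p = 0.0139), -0.71 for MCM5 (adjusted p = 0.0444), -1.32 for GINS4 (adjusted p = 0.0208), -0.75 for TYMS (adjusted p = 0.0463) and -1.02 for UHRF1 (adjusted p = 0.0137). Without replicate 1 of 200 mg/kg at 24 h none of the 48 genes passed, and without its replicate 2 there were 14. Each labelled time was sampled in a study of its own with other mice. The time after the dose and the study therefore cannot be told apart.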

How the results depend on the processing

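Under every alternative run, the log2 fold changes of the 15 genes given by tumor kept their sign at 24 h after 200 mg/kg. Their place past the threshold was lost in 29 gene fits and in 40 with a tumor left out. It was gained in 4 and 4, and stayed the same in 87 and 91. The number of genes past the threshold depended on the spread assumed and on single tumors. At 24 h the 17 genes lower after 200 mg/kg became 0 with all 94 libraries (9 at an unadjusted p under 0.05), 5 with only the groups compared and 11 with untreated tumors as control, and stayed between 14 and 23 under the other alternatives. Leaving out each tumor in turn gave 4 to 27. For the slope on dose at 24 h the 16 genes became 0 with all 94 libraries and 8 with only the groups compared, with 8 to 27 when each tumor was left out. At 30 mg/kg and 24 h all 94 libraries gave 16 genes, and leaving out each tumor 0. At 100 mg/kg and 24 h the count was 0 to 2, and for cage group 7 it was 0 to 1.

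For the effect of 200 mg/kg at 24 h minus 3-6 h, the 5 genes became 0 with all 94 libraries, 3 without a filter or without trend and robust, 9 with quantile normalization, the same-median scaling or vehicle cage group 2 alone, 2 with vehicle cage group 3 alone and 1 with untreated tumors as control. Leaving out each tumor gave 0 to 14. For 24 h minus 1 h, quantile normalization and the same-median scaling each gave 2, and leaving out each tumor 0 to 5. The causes were not tested. No paired analysis was possible because the replicate numbers were given in accession order and pair no samples. The depth of a library limits low genes such as E2F2, CCNE1 and E2F8, and with no read counts no counting error can be given.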
